A study of Homo sapiens with 2 samples.

Results

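The genes described here, called members below, are 30 genes of sterol synthesis and of its control by the sterol regulatory element-binding proteins (SREBPs), together with the fatty acid synthesis genes that the same factors control. Each gene was looked up by its symbol in a list of PAX-8 chromatin immunoprecipitation (ChIP) peaks in foam cells, and every peak the authors assigned to it was taken. Of the 30 genes, 17 had at least 1 assigned peak and 13 had none. The 17 genes held 39 unique peaks of the 45360 in the list.

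The study asked which genes PAX-8, a transcription factor of the paired-box family, binds in macrophage foam cells treated with 3-hydroxystearic acid (C18-3OH), a metabolite of the gut microbiota. Peaks were called in 1 PAX-8 ChIP library relative to 1 library of Input, the same kind of chromatin without an antibody step. Both libraries were made from THP-1, a long-established cell line from a human monocytic leukemia. The cells were turned into macrophages by 24 h with the phorbol ester PMA at 160 nmol/L and into foam cells by 48 h with ox-LDL, an oxidized lipoprotein, and then received 100 µM C18-3OH for 24 h. The methods mention an independent repeat, but with a single list there is no replicate behind any value and conditions could not be tested against each other. Because PAX-8 ChIP and Input share every treatment, the list holds no comparison of treated with untreated cells. The assay reads DNA, so the cell type could not be checked against marker transcripts.

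Cholesterol is built from acetyl-CoA through mevalonate, the isoprenoids, squalene and lanosterol. When sterols run low in the endoplasmic reticulum, the escort protein SCAP carries the SREBP precursors to the Golgi, where they are cleaved and freed to enter the nucleus. When sterols are plentiful, the INSIG proteins hold SCAP back, and in macrophages loaded with lipoprotein cholesterol this brake keeps sterol synthesis low.

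Promoter sequences were taken from RefSeq (GRCh38.p14) to show what the start regions of these genes hold. Each covers 250 bases before and 50 bases after a listed gene start, which makes 300 bases. Of the 30 genes, 26 matched, with 35 promoters. MVK and CYP51A1 are shown because each had a promoter peak, SREBF2 because it held the only sterol regulatory element match among the 35, and HMGCS1 and LSS as examples of a PAX partial site. Capitals mark letters that match a motif given below on either strand. The windows are chr12:109573544-109573843 (plus strand) for MVK, chr7:92134428-92134727 (minus strand) for CYP51A1, chr22:41832855-41833154 (plus strand) for SREBF2, chr5:43313132-43313431 (minus strand, 1 of 2 promoters of the gene) for HMGCS1 and chr21:46228725-46229024 (minus strand) for LSS.
MVK: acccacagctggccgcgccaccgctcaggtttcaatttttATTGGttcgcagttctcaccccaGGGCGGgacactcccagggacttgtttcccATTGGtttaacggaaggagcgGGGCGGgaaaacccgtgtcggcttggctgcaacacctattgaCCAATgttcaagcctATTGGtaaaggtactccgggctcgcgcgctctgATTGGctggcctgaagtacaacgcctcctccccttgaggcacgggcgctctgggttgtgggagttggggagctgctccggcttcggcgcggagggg
CYP51A1: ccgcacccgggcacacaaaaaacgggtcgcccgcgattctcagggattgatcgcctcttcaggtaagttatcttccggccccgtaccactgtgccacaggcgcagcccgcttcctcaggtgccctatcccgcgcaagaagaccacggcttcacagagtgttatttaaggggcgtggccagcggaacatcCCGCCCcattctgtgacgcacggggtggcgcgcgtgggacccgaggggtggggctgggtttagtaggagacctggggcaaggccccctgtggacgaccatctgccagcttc
SREBF2: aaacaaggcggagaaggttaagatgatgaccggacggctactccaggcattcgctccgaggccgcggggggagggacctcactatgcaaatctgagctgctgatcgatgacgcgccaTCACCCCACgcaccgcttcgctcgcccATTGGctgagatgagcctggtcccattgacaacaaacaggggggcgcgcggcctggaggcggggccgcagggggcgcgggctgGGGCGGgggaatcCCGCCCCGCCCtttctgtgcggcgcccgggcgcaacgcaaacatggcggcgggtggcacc
HMGCS1: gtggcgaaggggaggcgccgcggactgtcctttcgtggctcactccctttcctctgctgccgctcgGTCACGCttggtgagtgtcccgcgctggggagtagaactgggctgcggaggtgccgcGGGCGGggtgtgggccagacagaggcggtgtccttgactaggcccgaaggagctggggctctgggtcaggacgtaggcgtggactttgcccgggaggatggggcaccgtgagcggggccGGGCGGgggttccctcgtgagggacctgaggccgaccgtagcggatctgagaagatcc
LSS: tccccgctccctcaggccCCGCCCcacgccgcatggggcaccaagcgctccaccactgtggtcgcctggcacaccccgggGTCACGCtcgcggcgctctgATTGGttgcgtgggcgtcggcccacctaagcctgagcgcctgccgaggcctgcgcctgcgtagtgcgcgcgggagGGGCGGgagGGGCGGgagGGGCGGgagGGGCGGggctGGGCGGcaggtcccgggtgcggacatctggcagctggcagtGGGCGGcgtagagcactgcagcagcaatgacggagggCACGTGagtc

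The letters searched were GCNTGAC, part of the paired-domain site that PAX2, PAX5 and PAX-8 share, TCACNCCAC, a form of the sterol regulatory element, CACGTG, the palindromic E-box, CCAAT, the box bound by NF-Y, and GGGCGG, the GC box bound by Sp1. In SREBF2 the sterol regulatory element match spans positions -133 to -125, counted with the first transcribed base as 0, and 2 of its 3 GC boxes share bases. In HMGCS1 and LSS the PAX partial site reads on the reverse strand, at -184 to -178 and at -170 to -164. The MVK window holds 5 CCAAT boxes and 2 GC boxes, and the CYP51A1 window holds 1 GC box and no CCAAT box. No other motif of this search overlaps another in these 5 windows.

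A PAX partial site was present in 7 of the 35 promoters (20%, Wilson 95% interval 10.0 to 35.9), against 10.5% of all 35116 RefSeq promoters. These 7 belonged to ACACA, DHCR7, HMGCS1, HSD17B7, IDI1 and LSS, and none of the 6 genes had a promoter peak. Of all protein-coding genes 13.4% had one, so with 6 genes nothing is read from this. The E-box occurred in 5 promoters (14.3%, 6.26 to 29.4), of INSIG1, LSS, SC5D and SCAP, against 7.26% of all promoters. The 1 sterol regulatory element made 2.86% (0.506 to 14.5), against 1.13%. For these 3 motifs the interval of the members included the share of all promoters.

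The CCAAT box was in 24 promoters of 20 genes (68.6%, 52.0 to 81.4), against 34.6% of all promoters. The GC box was in 32 promoters of 25 genes (91.4%, 77.6 to 97.0), against 44.95% of all promoters and 56.3% of the promoters of protein-coding genes. On both strands together, both shares lay above those of all promoters by more than the counting interval. On the given strand only, the interval of the CCAAT box included the share of all promoters (31.4%, 18.6 to 48.0, against 19.6%), while that of the GC box did not (71.4%, 54.9 to 83.7, against 30.6%). The median GC content of the members' promoters was 69.0%, against 62.3% for protein-coding and 58.7% for all promoters, and the part of base composition in these shares was not tested. Promoters of 1 gene can share bases, so the 35 are not independent. A match is only the presence of letters.

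**Figure D1:**
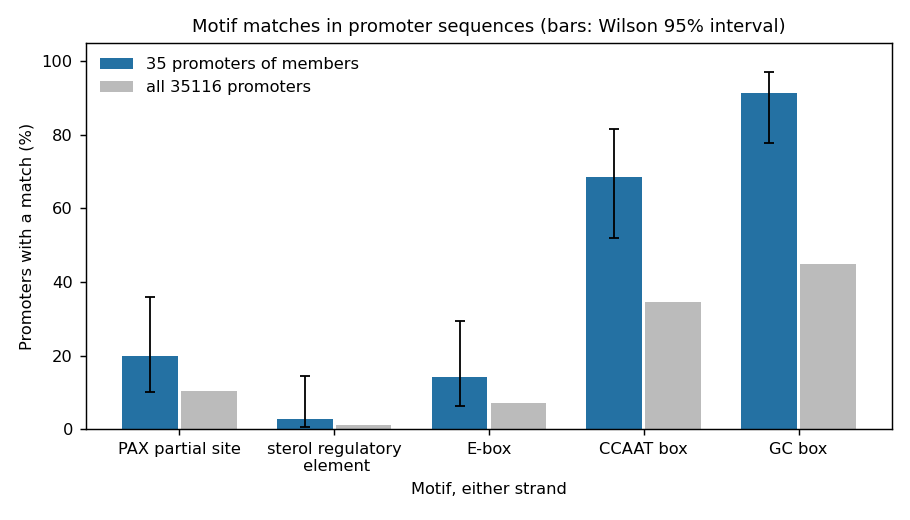
Share of promoters (%) that hold each motif on either strand, for the 35 promoters of the members (blue, left) and all 35116 RefSeq promoters (grey, right). Error bars are Wilson 95% intervals. The CCAAT box (68.6%, against 34.6%) and the GC box (91.4%, against 44.95%) stand above all promoters, and the bars of the other 3 motifs reach the grey columns.

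The peak list is on hg19 and gives for each peak the number of sequence tags in it, a fold enrichment whose exact definition the sources used here do not state, a score (the p-value as -10 times its decimal logarithm), a false discovery rate (FDR) and a class. The promoter class covers peak centres from -2000 to 1999 bp around a listed transcription start and the upstream class reaches to -20000 bp, where a minus sign means 5′ of the start. The other classes are exon, intron and intergenic. The list begins at 11 tags and at a score of 40. Neither library total is given in the sources used here. The sequencing depth is thus unknown, and tags in the Input library are not listed. Intervals of tags are exact Poisson 95% intervals, and all intervals cover counting error only.

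A peak was assigned to 17 of the 30 genes (56.7%, 39.2 to 72.6), against 54.9% of 20037 protein-coding genes. A promoter peak was assigned to 3 of the 30 (10.0%, 3.46 to 25.6), ACAT2, MVK and CYP51A1, against 13.4% of protein-coding genes. At least 8 peaks were assigned to 1 of the 30, INSIG1, against 3.93% of protein-coding genes. All 3 shares were near the share of genes at large. Among the 17 genes, 8 had 1 peak, 2 had 2, 5 had 3, 1 had 4 and 1 had 8, and the median of 2 peaks per gene was that of all genes with a peak.

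The 39 peaks were also near the whole list in strength. Their tags had a median of 14 (range 11 to 30), against 14 over all peaks. Their fold enrichment had a median of 7.35 (range 5.68 to 11.65, 95% interval of the median 6.54 to 8.17), against 7.35 over all peaks. The median score was 47.2, against 48.1, the median FDR 0.16%, against 0.16%, and the median length 601 bp, against 590 bp. A fold enrichment of at least 10 was listed for 2 of the 39 (5.13%, 1.42 to 16.9), 1 at MVK and 1 near INSIG1, against 4.63% of all peaks. At most 20 tags lay in 34 of the 39 (87.2%), against 88.2% of all peaks.

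**Figure D2:**
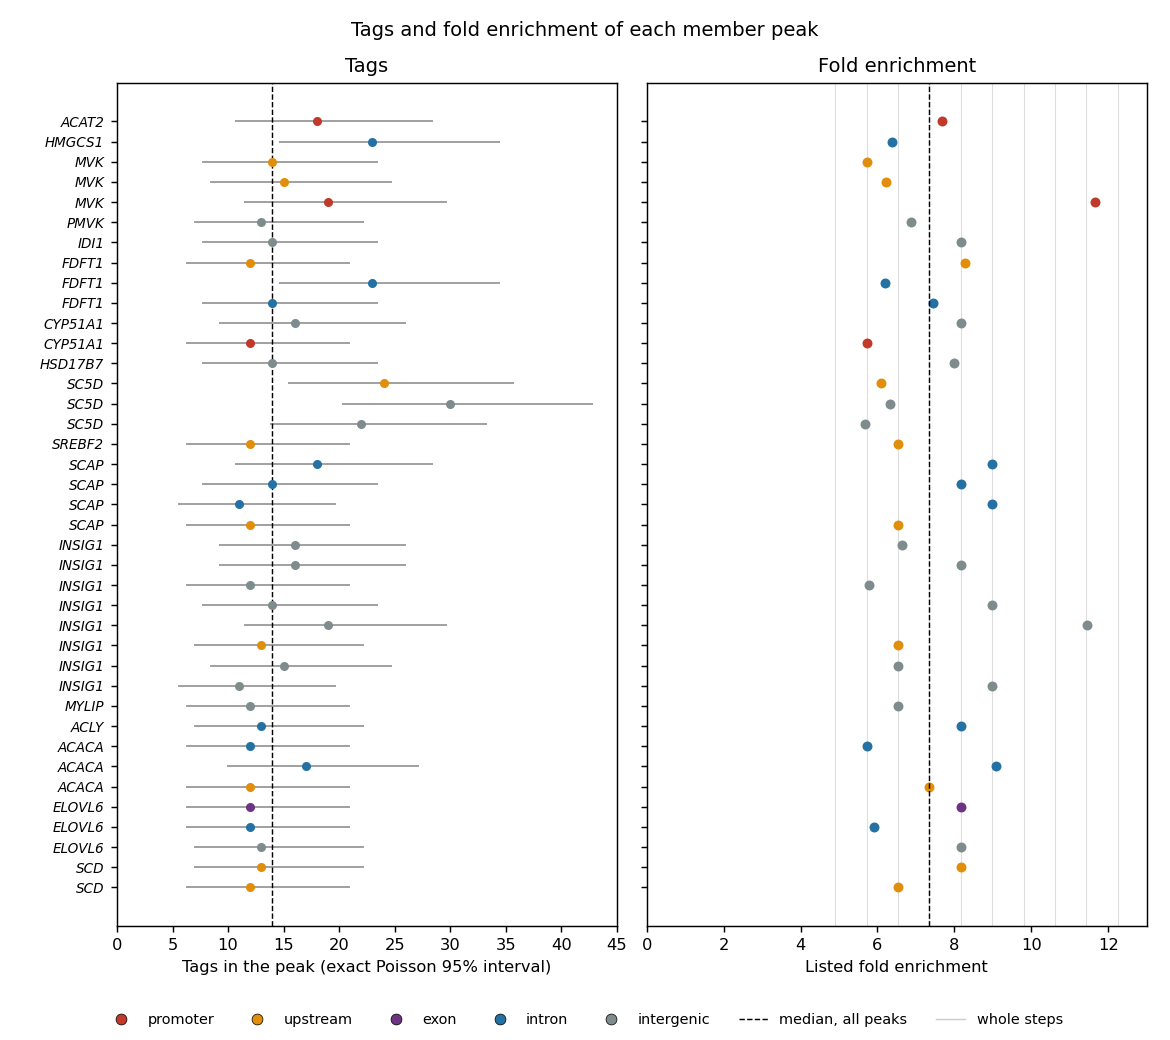
Tags (left, with exact Poisson 95% intervals) and listed fold enrichment (right) of each of the 39 peaks, 1 row per peak, coloured by class. Dashed lines are the medians of all peaks (14 tags and 7.35) and pale lines mark whole steps of fold enrichment. The MVK promoter peak (11.65) and 1 INSIG1 peak (11.44) lie farthest right, while the 2 peaks with the most tags, both at SC5D, lie left of the dashed line.

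The listed fold enrichment is coarse. For each peak a background was solved, namely the Poisson mean under which exceeding the observed tags has the probability listed. Over all peaks, 55.7% shared 1 background of 5.94 tags per kb, within 1%, and 20 of the 39 member peaks did (51.3%). Among all peaks on that background, 98.5% had a fold enrichment within 0.006 of a whole multiple of 0.817. Values such as 8.17 and 8.99 are neighbouring steps, and differences of 1 step between member peaks are not read as differences in strength. As tags over the solved background, the member peaks had a median of 3.51 (range 2.38 to 5.62), against 3.65 over all peaks. The solved background differed between chromosomes. Its median was 1.31 times the common one on chromosome 6 (with ACAT2), 1.32 on chromosome 8 (FDFT1) and 1.23 on chromosome 1 (HSD17B7). It was 1.05 on chromosome 5 (HMGCS1) and 1.00 on chromosome 11 (SC5D). The ACAT2 peak lay over 1.28 times the common background, the FDFT1 peaks over 1.13, 1.72 and 1.21 times and the HSD17B7 peak over 1.51 times. The 1.72 and the 1.51 were above the medians of their chromosomes. The part of the chromosome in these values was not tested, and a raised background is not read as a feature of the gene.

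By class, 3 of the 39 peaks lay in promoters (7.69%, 2.65 to 20.3), against 7.48% of all peaks. The upstream class held 10 (25.6%, 14.6 to 41.1), against 16.6%, and introns held 10 (25.6%), against 34.9%. The intergenic class held 15 (38.5%), against 38.7%, and 1 peak, in ELOVL6, lay in an exon (2.56%), against 2.24%. Every interval of the members included the share of all peaks.

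**Figure D3:**
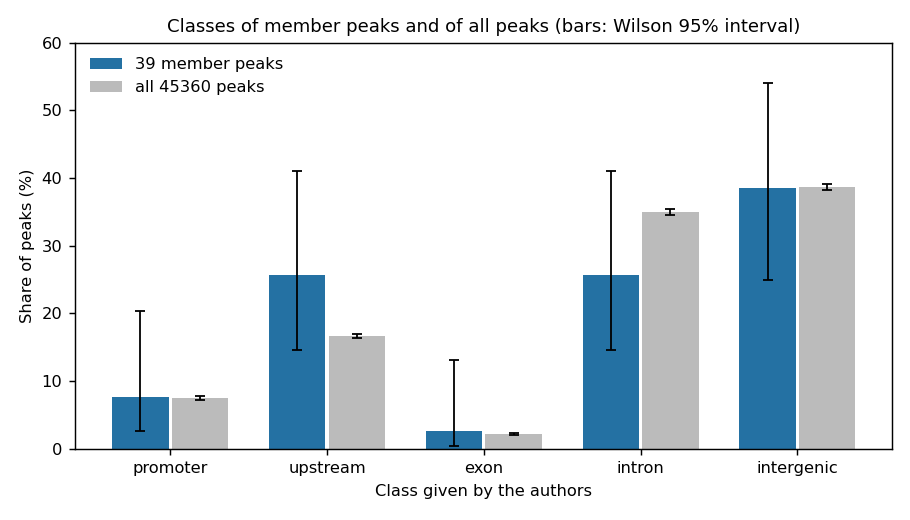
Share of peaks (%) in each class given by the authors, for the 39 member peaks (blue, left) and all 45360 peaks (grey, right), with Wilson 95% intervals. The upstream class is higher in the members (25.6%, against 16.6%) and the intron class lower (25.6%, against 34.9%), and both error bars of the members reach the level of all peaks.

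Peak centres of the members lay at a median of 21.2 kb from the listed start of their gene, against 36.2 kb over all peaks. Of the 39, 5 were within 5 kb (12.8%, against 13.8%), 19 within 20 kb (48.7%, 33.9 to 63.8, against 37.3%) and 35 within 100 kb (89.7%, 76.4 to 95.9, against 73.1%). The share within 100 kb was above that of all peaks by more than its counting interval. It is not particular to the members, since the 34 further genes described below had 86.8% (76.7 to 92.9). Distance depends on how far the neighbouring genes lie, and its part in either share was not tested. The peaks fell on both sides, 18 on the 5′ side and 21 on the 3′ side, and 14 lay inside the listed gene. In 33 of the 39 (84.6%, 70.3 to 92.8) the member had the nearest listed start. Of the 68 peaks of the 34 further genes, 60 (88.2%) had this, 17 lay on the 5′ side, 51 on the 3′ side and 34 inside the gene. Shares over all peaks were not computed for these counts, so nothing is read from them.

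**Figure D4:**
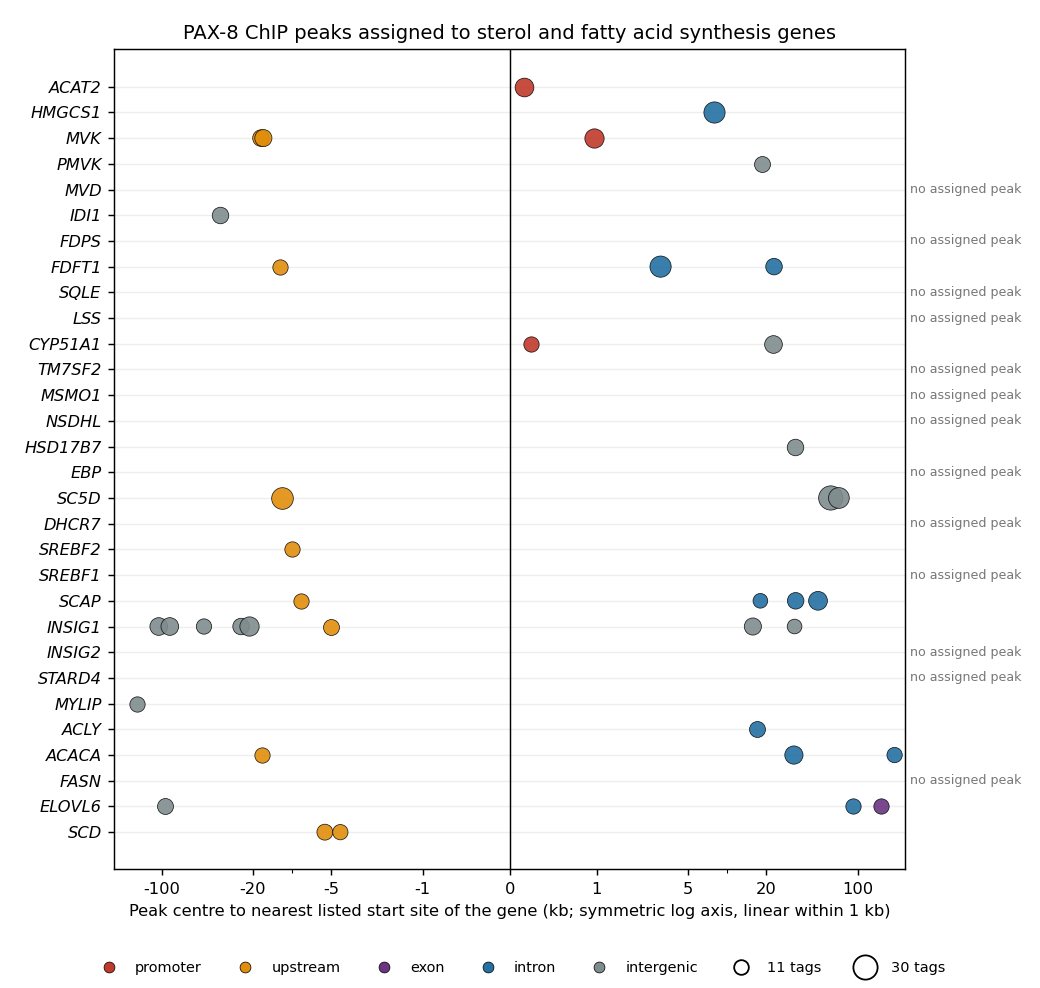
Position of each of the 39 peaks relative to the nearest listed start of its gene (kb, symmetric log axis that is linear within 1 kb), with genes in pathway order. Colour gives the class and point area the tags (11 to 30), and 13 genes have no assigned peak. Red points within 1 kb of the start appear for ACAT2, MVK and CYP51A1, and INSIG1 has the most points, 8.

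In the mevalonate steps, peaks were assigned to ACAT2, HMGCS1, MVK, PMVK and IDI1. MVK encodes mevalonate kinase, which phosphorylates mevalonate. Its promoter peak, at chr12:110012304-110012844, was centred 975 bp downstream of the start and spanned 706 to 1246 bp, inside the gene. It held 19 tags (11.4 to 29.7), with a fold enrichment of 11.65, a score of 91.98, an FDR of 0.50% and 5.62 times the solved background. This was the highest fold enrichment, score and ratio among the 39 peaks, and also the highest FDR. Member peaks with the lowest FDR, 0.13%, had scores near 40, so a low listed FDR does not mark a strong peak here. In the whole list 353 peaks had a higher fold enrichment and 99.2% a lower one. Counted from the hg19 start, the peak lies downstream of the 50 transcribed bases printed above. It was also assigned to MMAB, a cobalamin enzyme gene that runs the other way, at -1264 bp.

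MVK had 2 further peaks, both of the upstream class, at -17.3 kb and -16.6 kb. They held 14 tags (7.65 to 23.5) with a fold enrichment of 5.72 and a ratio to background of 3.32, and 15 tags (8.40 to 24.7) with 6.21 and 3.72. Both lay inside the listed span of MMAB, whose start is nearer, although the list assigns them to MVK only. Among the 39 peaks, 1 other lay inside a gene it was not assigned to, the SREBF2 peak described below.

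ACAT2 encodes the cytosolic acetoacetyl-CoA thiolase, which joins acetyl-CoA units at the entry of the pathway. Its 1 peak, at chr6:160182811-160183672, was a promoter peak centred 165 bp downstream of the start. It held 18 tags (10.7 to 28.4), with a fold enrichment of 7.67, a score of 42.53 and 2.75 times a background that was 1.28 times the common one. That background was near the median of chromosome 6, 1.31 times the common one. The peak was shared with SOD2, the mitochondrial superoxide dismutase gene, at 72 bp, and with SOD2-OT1 at 123 bp. The SOD2 start was nearer than that of ACAT2, so the list does not place this peak at 1 gene.

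HMGCS1 encodes the cytosolic HMG-CoA synthase. Its 1 peak was intronic, 7.975 kb from the start, and held 23 tags (14.6 to 34.5) with a fold enrichment of 6.37. The solved background there was 1.67 times the common one, and the ratio of 2.38 was the lowest of the 39. PMVK, the next kinase, had 1 intergenic peak at 18.7 kb (13 tags, fold enrichment 6.88). IDI1, the isopentenyl diphosphate isomerase, had 1 intergenic peak 35.5 kb away (14 tags, 8.17). In HMGCS1 and IDI1, both with a PAX partial site in a promoter, the peak was kilobases away from the listed start. Over all peaks the median distance was 36.2 kb, so nothing is read from this.

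MVD and FDPS, which encode mevalonate diphosphate decarboxylase and farnesyl diphosphate synthase, had no assigned peak. For genes without a row, the peaks between the listed starts of the nearest neighbours with a row were counted, and these peaks need not lie near the gene. Between CYBA and SNAI3, the neighbours of MVD, the list had 2 peaks in 35.5 kb. Between PKLR and RUSC1, the neighbours of FDPS, it had 1 in 19.5 kb, with 11 tags and a fold enrichment of 7.06.

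Of the squalene steps, only FDFT1, squalene synthase, had assigned peaks among FDFT1, SQLE and LSS. An upstream peak at -12.4 kb held 12 tags (6.20 to 21.0) with a fold enrichment of 8.28 and a ratio of 4.81. An intronic peak at 3.09 kb held 23 tags (14.6 to 34.5) with 6.19 and a ratio of 2.55, over a background of 1.72 times the common one. A further intronic peak at 22.9 kb held 14 tags (7.65 to 23.5) with 7.45 and a ratio of 3.05. The peak nearest the start had the most tags and the lowest ratio of the 3. SQLE, squalene epoxidase, had 7 peaks between MTSS1 and WASHC5 (363 kb), and LSS, lanosterol synthase, had 2 between SPATC1L and MCM3AP (101 kb). The LSS interval included a promoter peak of SPATC1L with 20 tags and a fold enrichment of 12.04, assigned to that gene alone.

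After lanosterol, CYP51A1, HSD17B7 and SC5D had peaks, while TM7SF2, MSMO1, NSDHL, EBP and DHCR7 had none. CYP51A1 encodes lanosterol demethylase. Its promoter peak, at chr7:91763259-91763840, was centred 242 bp downstream of the start and spanned -49 to 532 bp. It held 12 tags (6.20 to 21.0), with a fold enrichment of 5.72, a score of 41.71 and a ratio of 3.47 to the common background. With 10.4% of all peaks lower in fold enrichment, it lay near the low end of the list, where the MVK promoter peak lay near the top. The tag intervals of these promoter peaks overlapped (11.4 to 29.7 at MVK), and their order was not resolved by these counts. The CYP51A1 promoter peak was also assigned to the antisense gene CYP51A1-AS1, at -327 bp. An intergenic peak of CYP51A1 at 22.7 kb, past the end of the gene, held 16 tags (9.15 to 26.0) with 8.17 and a score of 60.95.

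SC5D encodes the sterol desaturase that precedes the last reduction. It had the 2 peaks with the most tags among the members, at low fold enrichments. The intergenic peak at 62.3 kb held 30 tags (20.2 to 42.8) with a fold enrichment of 6.32 and a ratio of 2.99. The upstream peak at -12.0 kb held 24 tags (15.4 to 35.7) with 6.08 and 2.74, and the intergenic peak at 71.9 kb held 22 tags (13.8 to 33.3) with 5.68 and 2.62. The solved backgrounds were 1.55, 1.88 and 1.44 times the common one, and the peaks were 1090, 783 and 983 bp long. All 3 SC5D peaks were longer than the median of 601 bp and lay over a background above the common one. HSD17B7, a sterol ketoreductase, had 1 intergenic peak at 33.3 kb (14 tags, 7.99) over a background of 1.51 times the common one.

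DHCR7 encodes the reductase that forms cholesterol from its last precursor. Between its neighbours SHANK2 and NADSYN1 there were 7 peaks in 201 kb, among them a promoter peak of NADSYN1 with 12 tags. TM7SF2, a sterol reductase, had 1 between NAALADL1 and ZNHIT2 (59.1 kb), at the NAALADL1 promoter with 13 tags. MSMO1, the methylsterol monooxygenase, had 2 between GK3 and CPE (98.98 kb). NSDHL and EBP, a sterol dehydrogenase and isomerase of the X chromosome, had 2 between GABRQ and PNMA3 (418 kb) and 0 between ELK1 and SUV39H1 (1045 kb). The X chromosome held 222 of the 45360 peaks.

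Among the regulators, INSIG1 had the most peaks of any member and SCAP the next most. INSIG1 encodes the sterol-dependent anchor of SCAP and is itself induced by SREBPs. Its 8 peaks held 116 tags, 7 of them intergenic and 1 upstream, and none lay inside the gene. The highest, at chr7:155067999-155068569, lay at -21.2 kb and held 19 tags (11.4 to 29.7) with a fold enrichment of 11.44, a score of 91.72 and a ratio of 5.60. It came next to the MVK promoter peak in fold enrichment, and 383 peaks of the list were higher.

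Farther 5′ of INSIG1, the peaks at -105 kb and -86.5 kb held 16 tags each, with fold enrichments of 6.64 and 8.17. Those at -47.4 kb, -24.6 kb and -5.06 kb held 12, 14 and 13 tags, with 5.77, 8.99 and 6.54. On the 3′ side, the peaks at 15.8 kb and 32.9 kb held 15 and 11 tags, with 6.54 and 8.99. The other 7 INSIG1 peaks thus held 11 to 16 tags. The tag intervals of all 8 overlapped, that of the peak at -21.2 kb included, and their order was not resolved by these counts. Counted whatever the assignment, 10 listed peaks lay within 100 kb of the INSIG1 start and 16 within 250 kb. Autosomal tiles of 200 kb held a median of 3 peaks, and 3.22% of 14408 tiles held 10 or more.

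**Figure D5:**
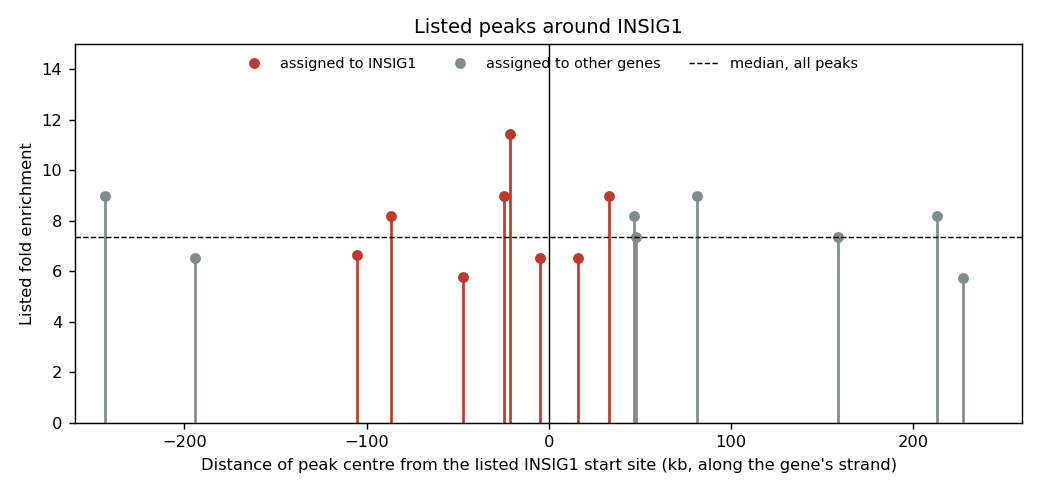
Listed fold enrichment of the 16 peaks within 250 kb of the INSIG1 start, by distance along the gene's strand (kb). Red marks the 8 peaks assigned to INSIG1, grey those of other genes, and the dashed line is the median of all peaks (7.35). The peak at -21.2 kb (11.44) is the highest, and no red point falls inside the 12.5 kb listed for the gene.

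SCAP encodes the sterol-sensing escort of SREBP precursors. It had 3 intronic peaks and 1 upstream peak. The peak at 49.7 kb held 18 tags (10.7 to 28.4) with a fold enrichment of 8.99 and a ratio of 3.19, and that at 18.0 kb held 11 tags (5.49 to 19.7) with 8.99 and 5.32. The peak at 33.5 kb held 14 tags (7.65 to 23.5) with 8.17 and 4.19, and the upstream peak at -8.54 kb held 12 tags (6.20 to 21.0) with 6.54 and 3.65. The first 2 had equal listed fold enrichment but different tags, lengths (951 and 374 bp) and ratios. The start of PTPN23 lay nearer than that of SCAP to the peak at 49.7 kb.

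SREBF2 encodes the SREBP that acts mainly on sterol genes. Its 1 peak was upstream, at -9.94 kb, and held 12 tags with a fold enrichment of 6.54. That peak lay inside the listed span of CCDC134, to which it was not assigned. SREBF1, which encodes the SREBP isoforms that act mainly on fatty acid genes, had no assigned peak, with 2 between RASD1 and EVPLL (881 kb). One of these 2, at chr17:17702485-17702999, held 13 tags with a fold enrichment of 7.35 and was assigned to MIR6777, a microRNA gene that lies inside SREBF1 in the RefSeq table. The list classed this peak as intergenic, with its centre 14.1 kb from the MIR6777 start. The lookup by symbol therefore gives SREBF1 no peak although 1 was assigned to a gene within it. The list does not place that peak inside SREBF1. INSIG2, the second INSIG gene, had no assigned peak, and 19 lay between CCDC93 and EN1 (834 kb).

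Of the genes that move sterol or take up lipoprotein, MYLIP encodes a ubiquitin ligase that degrades lipoprotein receptors and is induced by liver X receptors. Its 1 peak was intergenic, 154 kb 5′ of the start, with 12 tags, a fold enrichment of 6.54 and a score of 40.34, the lowest score among the members. STARD4, a cytosolic sterol carrier, had no assigned peak. Between CAMK4 and NREP (534 kb) the list had 8 peaks, of which 2 were assigned to introns of the antisense gene STARD4-AS1.

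Of the fatty acid genes, ACLY, ACACA, ELOVL6 and SCD had peaks and FASN had none. ACLY encodes ATP citrate lyase, the source of cytosolic acetyl-CoA, and its 1 intronic peak at 17.1 kb held 13 tags with a fold enrichment of 8.17. ACACA encodes acetyl-CoA carboxylase. Its intronic peak at 32.5 kb held 17 tags (9.90 to 27.2) with 9.07 and a ratio of 3.98, less than 1 step of fold enrichment above the 8.99 listed for peaks of SCAP and INSIG1. The other ACACA peaks held 12 tags (6.20 to 21.0) each, an intronic one at 192 kb with 5.72 and a ratio of 3.94 and an upstream one at -17.0 kb with 7.35 and 3.49. The ratios of the 3 ACACA peaks differed less than their fold enrichments.

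ELOVL6 encodes the elongase of saturated fatty acids. Its peaks were an exonic one at 151 kb (12 tags, 6.20 to 21.0), with a fold enrichment of 8.17 and a ratio of 3.78, an intronic one at 92.2 kb (12 tags, 6.20 to 21.0), with 5.90 and 3.37, and an intergenic one at -93.4 kb (13 tags, 6.92 to 22.2), with 8.17 and 3.33. All 3 were far from the start, and EGF had the nearer start for the exonic peak. SCD encodes the stearoyl-CoA desaturase. Its 2 upstream peaks, at -5.61 kb and -4.27 kb, held 13 and 12 tags with 8.17 and 6.54 and were both shared with PKD2L1. A further peak inside the listed SCD span was assigned to OLMALINC only. FASN, fatty acid synthase, had 6 peaks between GPS1 and CCDC57 (161 kb), 3 assigned to RFNG and 3 to CCDC57.

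Across these roles, the 3 promoter peaks were in enzymes of sterol synthesis, and no regulator, carrier or fatty acid gene of the 30 had one. The share of protein-coding genes with a promoter peak was 13.4%, and the groups by role are too small to be set against it. All 3 promoter peaks were shared with a second gene, against 527 of the 3393 promoter peaks in the list (15.5%). With 3 peaks nothing is read from either point.

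A further 34 genes of sterol and fatty acid metabolism were looked up in the same way. At least 1 peak was assigned to 21 (61.8%, 45.04 to 76.1) and a promoter peak to 3 (8.82%), shares again near the 54.9% and 13.4% of protein-coding genes. Their 68 peaks had a median of 14 tags and a median fold enrichment of 7.13. Of these, 59 lay within 100 kb of the listed start (86.8%, 76.7 to 92.9), against 73.1% of all peaks. Their median distance was 26.4 kb, against 36.2 kb over all peaks. The promoter peaks were at GGPS1, geranylgeranyl diphosphate synthase (437 bp, 23 tags, 7.14), ELOVL5, an elongase of polyunsaturated fatty acids (498 bp, 18 tags, 5.70), and PNPLA3, a lipid droplet protein (1918 bp, 13 tags, 8.99). The highest fold enrichments were 12.25 in an upstream peak of PNPLA3 (17 tags), 9.80 in an intron of NPC1, the lysosomal cholesterol exporter (14 tags), and 9.80 upstream of FADS2, a fatty acid desaturase (16 tags). Thus 1 of these 68 peaks reached a fold enrichment of 10, against 2 of the 39 above.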

How the data were processed

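The authors performed PAX-8 ChIP-Seq and deposited 1 peak list on hg19, from which all values here start. It gives a count of tags per peak, the fold enrichment as a ratio, the p-value as a score on a scale of -10 times its decimal logarithm, and the FDR in percent, as deposited by the authors. The submitters' notes name FastQC and hg19. For the aligner, the peak caller and the definition of fold enrichment, the sources used here give nothing.

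The 103443 lines, 1 per peak and transcript, were reduced to 45360 unique positions, and a peak counted for each gene whose symbol it carried. Symbols were matched to a RefSeq table of GRCh38.p14 by accession (15628), symbol (58) or synonym (34), and 16 were unmatched. From that table came names, biotypes, gene order and which genes lie inside others, but no coordinate, and promoters came from RefSeq on the same build, so peaks on hg19 were not placed on them. The background step left out the 4 peaks at the largest score, 3100. Tested on 20000 simulated peaks made with the same formula, it returned 100% of backgrounds within 1%, which checks the solving step only and not whether the listed scores follow that formula.

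Members and lists were chosen with earlier results of these data known. Every member was named. Full values went to members with a promoter peak, the members with the most peaks (5 tied at 3 peaks) and the 5 highest fold enrichments, and other pathway genes were named for a promoter peak or the 3 highest fold enrichments. Peaks inside other genes, MIR6777 and OLMALINC were named after their values were seen. No set test or test between conditions was run. Alternatives were limits on fold enrichment, FDR and distance, merged peaks and nearest starts. Calculations ran in Python 3.11.15 with scipy 1.17.1, pandas 2.3.3 and numpy 2.4.6, and plots in matplotlib 3.10.9.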

Additional observations from a re-analysis of the deposited data

How the results depend on the processing

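Of 40 alternatives, 29 moved a value by less than its interval or, for a count, by less than 1.5 times. Of the other 11, 8 were limits on fold enrichment. At a fold enrichment of at least 10, 2 members had a peak (INSIG1 and MVK), 1 had a promoter peak, 2 unique peaks remained, 50% of them were in promoters, and 1 of the other pathway genes had a peak. At a fold enrichment of at least 8, 10 members had a peak, 1 had a promoter peak (MVK) and 16 unique peaks remained. With a start site within 5 kb in place of the promoter class, 5 members counted, FDFT1 and SCD being added. The shares of all genes under these limits were not computed, so nothing is read about the members from these counts. By peaks, 5.13% of the 39 reached a fold enrichment of 10, against 4.63% of all peaks. Within 5 kb lay 12.8%, against 13.8% of all peaks. With motifs searched on the given strand only, the PAX partial site was in the promoters of 0 members, where 6 had it on either strand. That made 0% of the 35 promoters (0 to 9.89), an interval that included the 5.30% of all promoters. The CCAAT box was then in the promoters of 10 members, where 20 had it on either strand. The CCAAT share was no longer above that of all promoters by more than its interval. An FDR of at most 1% left 17 members and 39 peaks, an outcome fixed in advance. The highest listed FDR was 0.50% among the member peaks and 0.63% among those of the other pathway genes. The alternatives with this limit are counted in the 29 but could not have moved a value. The same holds for merged peaks wherever genes were counted, since merging takes no gene away. It also holds for the E-box on the given strand only, because its letters read alike on both strands. Merging peaks within 500 bp left 38 peaks. Peaks within 100 kb gave 16 members and 35 peaks, and peaks with the member as the nearest start gave 16 and 33. No paired analysis was possible because there is 1 PAX-8 ChIP and 1 Input library. The tags per peak limit the precision: 34 of the 39 peaks held at most 20, and the list begins at a score of 40, so weaker enrichment cannot be seen here.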
